A study of Mus musculus with 6 samples.

Results

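Pseudogenes are disabled copies of genes. Processed pseudogenes arise when a messenger RNA is copied back into DNA and inserted elsewhere, so they lack introns and usually arrive without the promoter of their parent gene, whereas unprocessed pseudogenes arise by duplication of DNA and can carry their promoter along. NF-Y is a trimeric transcription factor whose subunit NF-YA recognises the CCAAT box, an element typical of promoters, which it reads on either strand. In CUT&RUN, an antibody directs a nuclease to a bound protein and the released DNA is sequenced, and here this was done for NF-YA in muscle stem cells (MuSCs) of wild type C57BL/6 mice that were cultured and labelled activated/proliferating. The series held 6 samples, 3 libraries made with the NF-YA antibody and 3 made with control IgG, and all cells shared 1 genotype and state. Male and female mice aged 8 to 20 weeks were used, and IgG values were not analysed here.

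Of 9056 NF-YA peaks, 225 (peaks annotated to a pseudogene, 199 pseudogenes in all) were selected by the gene biotype listed for each peak, whatever their level. By class, 197 were annotated to processed pseudogenes, 10 to transcribed processed, 7 to unprocessed and 7 to transcribed unprocessed pseudogenes. A further 2 lay at transcribed unitary and 2 at polymorphic pseudogenes. The label is one of proximity: a peak was given the nearest gene with a 5' end within 10 kb, so a peak can carry the name of a pseudogene without touching it. A value is the number of reads in a peak divided by a size factor of its library and rounded, in units termed normalised reads.

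Sequences of the boxes come first. Each line below gives the CCAAT box nearest to the centre of a peak with 10 bases to either side, read from 5' to 3' on the strand on which the box reads CCAAT, from GRCm38.p6 (mm10), with the box in capitals. The first group holds the peaks among the 10 with the highest mean whose box lay within 50 bp of the centre and which lay away from starts of protein-coding transcripts. They are shown as examples of the element in strong peaks away from coding starts. Gm17271 and Gm29597, also among the 10, had no box that close to the centre.
AC127556.2 (chr19:6322377-6322401, plus strand): tcctctgtagCCAATcacaaaactc
Gm26927 (chr13:84348132-84348156, plus strand): cggacctcagCCAATcaccggacgc
Minpp1-ps (chr6:121110433-121110457, minus strand): agattcccagCCAATcacctcgttc
ENSMUSG00000118572 (chr17:23700270-23700294, plus strand): ggcaccccaaCCAATcatcgtgtcc
Pisd-ps1 (chr11:3123952-3123976, minus strand): acagcggcttCCAATcgagaagctt
Pisd-ps2 (chr17:3084205-3084229, plus strand): gcagaggcttCCAATgggaggctgt

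The second group holds peaks that were annotated to a pseudogene but lay at the start of a protein-coding transcript of the gene given after the comma. Those at Tecr, Fam111a and Zfp617 followed from the rules for naming, and the other 3 were chosen after their values were seen.
Gm18001, at Tecr (chr8:83594487-83594511, plus strand): gtccctcctgCCAATcagcgtgggg
Gm16274, at Fam111a (chr19:12573450-12573474, plus strand): agagaaaggaCCAATccgcagtctc
Gm15028, at Araf (chrX:20848481-20848505, plus strand): tgatcatcctCCAATaagaatggag
Ccnb2-ps, at Zfp617 (chr8:71922788-71922812, plus strand): tgtgagctggCCAATcagcagcgcc
Gm11737, at Cyth1 (chr11:118212867-118212891, plus strand): ggcacagggaCCAATtagcccactg
Gm11518, at Spag9 (chr11:94044069-94044093, plus strand): ggtattgtagCCAATgggctaagcc

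The peaks lay near pseudogenes far more often than on them. Of the 225, only 11 (4.89%, 95% Wilson interval 2.75 to 8.54) overlapped the annotated pseudogene. The centres of 4 peaks lay in an exon of a pseudogene, which for the Gm19144 peak was not the annotated one. Among peaks of protein-coding genes, 69.1% overlapped the gene, and among peaks of long noncoding RNA (lncRNA) genes 42.5% did. The median distance from the peak centre to the pseudogene's 5' end was 5179 bp, with quartiles of 2682 and 7713 bp, against 191 bp for protein-coding and 3302 bp for lncRNA genes. Within 1000 bp of the 5' end were 18 peaks (8.0%, 5.12 to 12.3), compared with 68.3% of the 5173 peaks of protein-coding genes and 28.3% of the 480 peaks of lncRNA genes. Each further kilobase up to 10 kb held between 17 and 25 peaks. Upstream of the 5' end lay 122 peaks and downstream 103, of which 96 lay wholly past the 3' end. The median pseudogene spanned 555 bp.

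**Figure D1:**
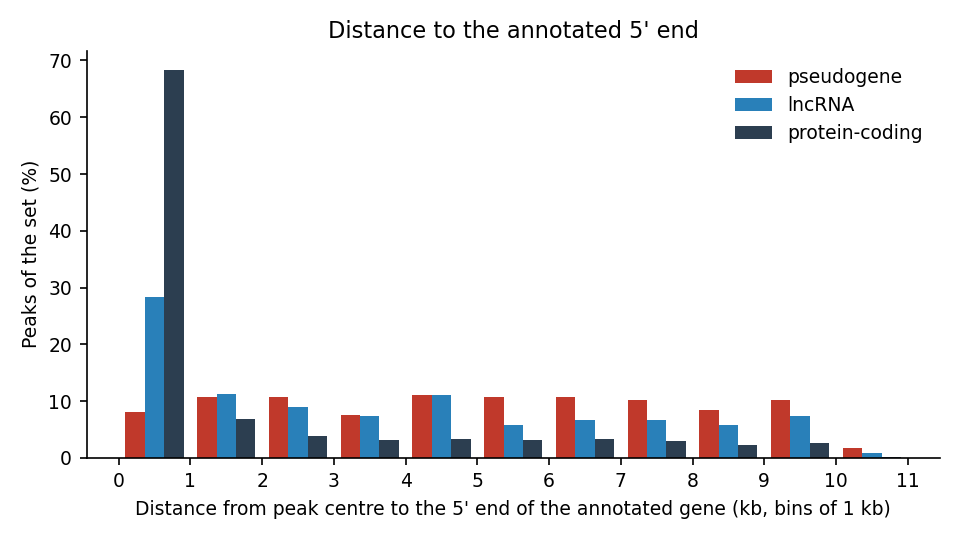
Share of peaks (y axis, %) by distance from the peak centre to the 5' end of the annotated gene (x axis, bins of 1 kb), for peaks annotated to pseudogenes (red, 225), lncRNA genes (blue, 480) and protein-coding genes (dark, 5173). The first kilobase held 68.3% of the protein-coding and 8.0% of the pseudogene peaks, and the pseudogene bars stay level out to 10 kb.

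Few of the peaks lay at a promoter of any kind. At the peak centre, 156 (69.3%) lay outside protein-coding genes, 64 (28.4%) in an intron and 5 in an exon of one. A start of a protein-coding transcript lay within 1000 bp of 7 peaks (3.11%, 1.52 to 6.28), against 73.4% of protein-coding peaks, 5.83% of lncRNA peaks, 5.45% of the 2865 peaks with no annotated gene and 44.3% of all peaks. With starts of every transcript that is not a pseudogene's, the number rose to 14 (6.22%). These include the peak of 4632415L05Rik at its own start, because the transcript annotation does not class that gene as a pseudogene. Neither such a start nor the pseudogene's own 5' end lay within 1000 bp of 194 peaks.

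Viewed from the annotation, NF-YA peaks at pseudogenes were rare. Of 13523 pseudogenes in GENCODE M21, a public gene annotation on the same assembly, 196 (1.45%) had at least 1 peak in their name. The same held for 4171 of 21951 protein-coding genes (19%) and 390 of 10150 lncRNA genes (3.84%). Restricted to peaks within 1000 bp of the 5' end, the numbers were 16 pseudogenes (0.118%) and 3243 protein-coding genes (14.8%). By class, 174 of 9940 processed pseudogenes (1.75%, 1.51 to 2.03) had a peak, but 5 of 2642 unprocessed ones (0.189%, 0.0809 to 0.442). Among transcribed pseudogenes the shares were 8 of 296 processed (2.7%, 1.38 to 5.24) and 5 of 253 unprocessed (1.98%, 0.847 to 4.54), whose intervals overlap widely.

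Next, the levels were examined. Depth limited what could be seen: the values corresponded to about 481370, 226958 and 334656 reads in all peaks in replicates 1, 2 and 3, and to 6776, 3309 and 4575 reads in the 225 peaks. The median pseudogene peak rested on about 17, 8 and 11 reads. Before rounding, 3 reads correspond to 1.99, 4.43 and 3.06 normalised reads. In replicate 1, 1 of the 225 peaks was at or below that value, but 56 (24.9%) were in replicate 2, and replicate 3 had 29 such peaks (12.9%). The peaks of Gm5626 and Gm12785, with 2 in replicate 1, are not in this count although 3 reads round to 2 there.

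The median level of the 225 peaks, in the order of the replicates, was 11, 12 and 11 normalised reads. Peaks of protein-coding genes had medians of 21, 22 and 22. The ratio of these medians on the log2 scale averaged -0.94 ± 0.06 (SD, n = 3 libraries), about 1.91-fold lower at pseudogenes and in the same direction in 3 of 3 libraries. An exact two-sided sign-flip permutation test gave p = 0.25, the smallest value that 3 libraries allow.

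The difference was smaller away from gene starts. Beyond 1000 bp, the log2 ratio between the 207 pseudogene peaks and the 1640 protein-coding peaks was -0.16 ± 0.07 (SD, n = 3, exact permutation p = 0.25), whereas the 18 peaks within 1000 bp gave -0.91 ± 0.22 against 3533 protein-coding peaks (n = 3, exact permutation p = 0.25). Compared with peaks that had no gene, the pseudogene peaks were slightly higher, with a log2 ratio of 0.18 ± 0.07 (SD, n = 3, exact permutation p = 0.25). The medians were 11, 12 and 11 against 10, 10 and 10, so rounding to whole numbers limits this ratio and its SD. Against lncRNA peaks the ratio was -0.04 ± 0.07, less than the spread between libraries. Pseudogene peaks were also shorter than protein-coding ones, with medians of 161 and 226 bp, and the values are not corrected for length. Expressed per kb of peak, the log2 ratio to protein-coding peaks was -0.56.

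**Figure D2:**
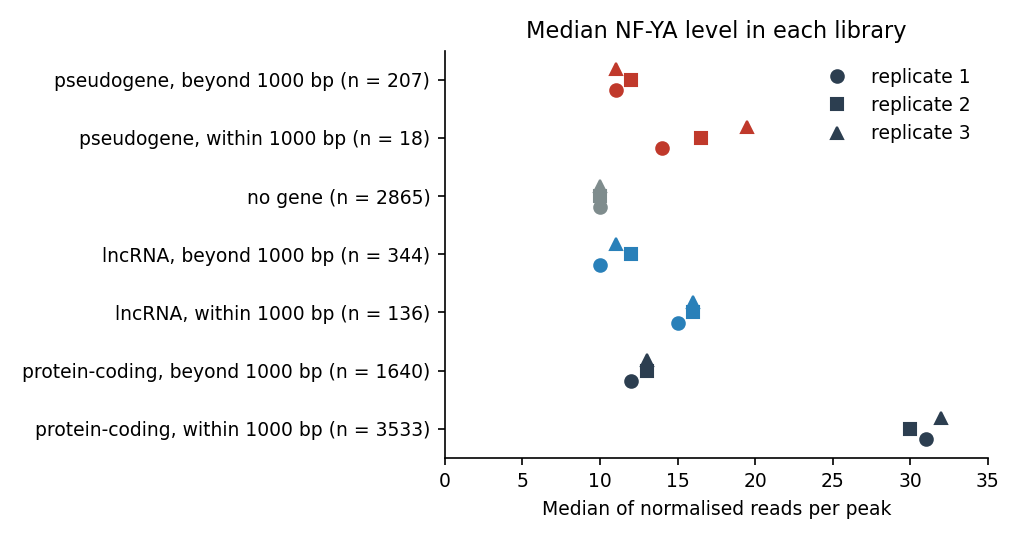
Median of normalised reads per peak (x axis) in each of the 3 NF-YA libraries (circle, square and triangle for replicates 1, 2 and 3), for sets of peaks split at 1000 bp from the 5' end of the annotated gene (y axis, with the number of peaks). Pseudogene peaks beyond 1000 bp sit at 11 to 12, beside peaks without a gene at 10, and protein-coding peaks within 1000 bp sit at 30 to 32.

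Levels among the 225 peaks ran from a mean of 2.0 to 170 normalised reads, with quartiles of 5.67 and 23.7. A mean of at least 10 was reached by 127 peaks, and 11 (4.89%) belonged to the top 10% of all 9056 peaks, which began at a mean of 91.0. The 10 highest peaks held 25.1% of the summed signal of the 225. Agreement between libraries was moderate. Pearson's r across the 225 peaks on log2(value + 1) was 0.81 between replicates 1 and 2, 0.81 between 1 and 3 and 0.84 between 2 and 3, with Spearman's rho of 0.79, 0.78 and 0.85. These describe peaks, which are not replicates. The median coefficient of variation (CV) over the 3 libraries was 32.7%, against 25.4% over all peaks and 21.3% over protein-coding peaks. Counting alone would give the median pseudogene peak a CV of 24.6%, 35.1% and 30.4% at the depths of replicates 1, 2 and 3. In the 75 peaks with the highest means, the median CV was 20.7%.

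The strongest peak was annotated to Pisd-ps1, a duplicated copy of the gene for phosphatidylserine decarboxylase, a mitochondrial enzyme that makes phosphatidylethanolamine. It lay at chr11:3123790-3124193, 1913 bp upstream of the annotated 5' end, and held 98, 207 and 204 normalised reads in replicates 1, 2 and 3. Replicate 1 was below the other libraries here. The paper lists shorter reads for replicate 1 than for replicates 2 and 3, and the effect of read length was not tested. The fifth strongest peak, at chr17:3084034-3084336, was annotated to a second copy, Pisd-ps2. Its centre was 2 bp from the 5' end, and its values were 97, 98 and 129. Outside this pair, the promoter peak of the intact parent gene Pisd held only 9, 10 and 7.

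Both copies carried the same pair of CCAAT boxes. The stretches below run in the direction of the pseudogene, from 12 bases before to 12 bases after the pair, and the capitals mark the boxes, which read ATTGG because they lie on the opposite strand. They are shown because both peaks lay on copies of 1 sequence.
Pisd-ps1 (chr11:3123861-3123978, plus strand): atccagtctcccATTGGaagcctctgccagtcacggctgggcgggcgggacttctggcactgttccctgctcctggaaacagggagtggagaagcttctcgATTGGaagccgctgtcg
Pisd-ps2 (chr17:3084114-3084231, minus strand): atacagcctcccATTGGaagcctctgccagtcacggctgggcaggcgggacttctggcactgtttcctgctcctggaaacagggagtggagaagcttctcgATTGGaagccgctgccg
The boxes were 89 bp apart in each. Over the whole Pisd-ps1 peak of 404 bp, the copies matched at 393 of 406 aligned positions (96.8%), and all 3 boxes of that peak were intact in Pisd-ps2. No alignment of more than 16 positions was found with the region of the Pisd promoter peak. The authors kept only reads that mapped to 1 place, so each value counts the reads that could be told apart between the copies.

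Some peaks named after pseudogenes lay at transcript starts of intact genes. The second strongest peak was annotated to Gm18001, a processed copy of the ribosomal protein gene Rps2, 5519 bp away. Its centre lay 10 bp from a transcript start of Tecr, which encodes an enzyme of very long chain fatty acid elongation, and it held 125, 167 and 162 normalised reads. For comparison, the peak at the outermost start of Tecr, which carried the gene's own name, held 82, 68 and 67. The peak annotated to Gm16274, 4627 bp away, lay 70 bp from a transcript start of Fam111a, a gene for a protease linked to DNA replication, and held 136, 72 and 88. The peak annotated to Ccnb2-ps, a processed copy of the cyclin B2 gene, lay 68 bp from a start of the zinc finger gene Zfp617 with 52, 52 and 53. Ccnb2 itself had a promoter peak with 50, 47 and 67. All 3 of these peaks had a CCAAT box within 50 bp of their centre, as shown at the start.

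The remaining 4 peaks at coding transcript starts were looked up after their values were seen. They were annotated to Gm15028 (64 bp from Araf, a RAF family kinase), Gm11737 (140 bp from Cyth1, an exchange factor for ARF GTPases), Gm11518 (3 bp from Spag9, a scaffold of MAP kinase signalling) and Gm16061 (62 bp from Por, the electron donor of cytochrome P450 enzymes). Their means were 57.3, 34.7, 25.3 and 10.7 normalised reads. Of the 7, 6 had a central CCAAT box, and the peak at Por had none. The pseudogenes they were named after lay 3932 to 10046 bp away. In all, 29 peaks (12.9%) lay closer to a transcript start of a gene that is no pseudogene than to the 5' end they were annotated to, 17 of them to a start of a protein-coding transcript. The 29 include the peak of 4632415L05Rik, for which that start was the one of its own gene. Measured to the outermost 5' end of each gene, the nearest gene of the 223 peaks whose gene was in GENCODE M21 was the pseudogene in every case.

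Further strong peaks lay near noncoding transcripts of coding genes or in open sequence. AC127556.2 held 88, 134 and 125 normalised reads, 563 bp from a noncoding transcript start of Cdc42bpg, a kinase gene, and 9083 bp from its pseudogene. Minpp1-ps, a processed copy of an inositol phosphate phosphatase gene, held 90, 105 and 106 at 364 bp from a noncoding transcript start of Mical3, which encodes an actin-oxidising enzyme. Gm26927 held 97 and 105 in replicates 1 and 2, with replicate 3 between these values, and the nearest coding start was 122916 bp away. Gm29597 held 108, 117 and 94 at 83204 bp from the nearest coding start, that of Cxcr4. The unnamed processed pseudogene ENSMUSG00000118572 held 111, 83 and 97 at 151 bp from its own 5' end. Of the 10 highest peaks, 8 had a central CCAAT box and all 10 had one somewhere in the peak.

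**Figure D3:**
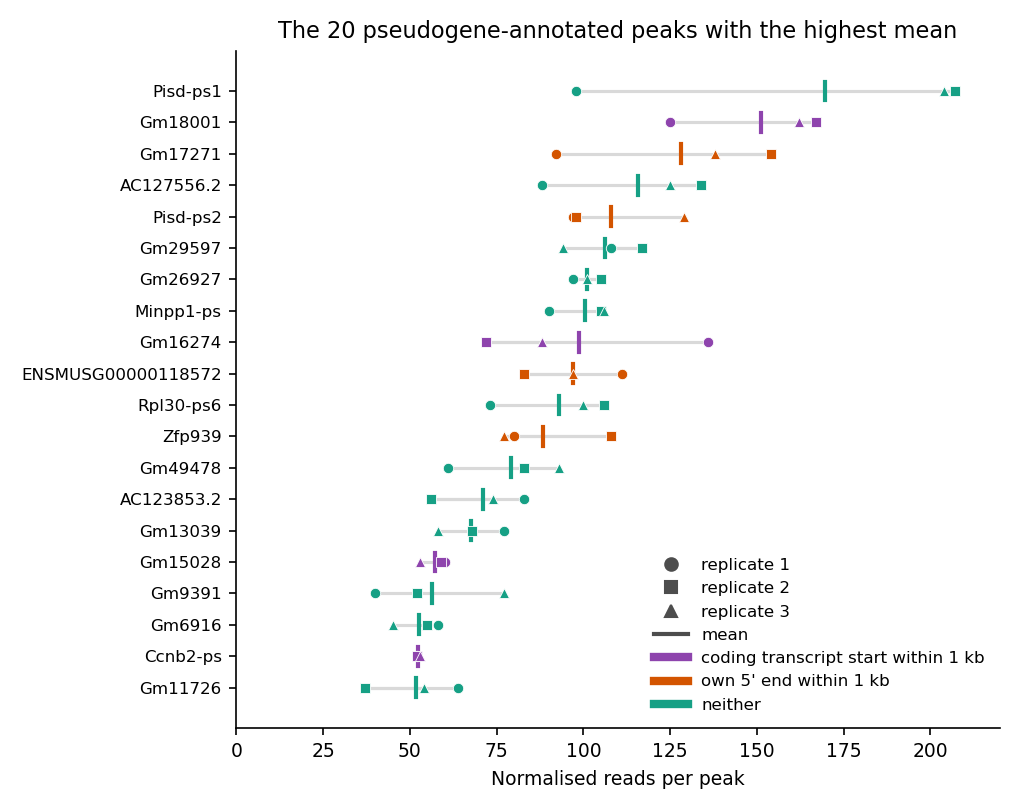
Normalised reads (x axis) in replicates 1, 2 and 3 (circle, square, triangle) and their mean (bar) for the 20 pseudogene-annotated peaks with the highest mean. Purple marks the 4 peaks with a start of a protein-coding transcript within 1 kb, orange the 4 others with their own 5' end within 1 kb and green the remaining 12. Pisd-ps1 spans 98 to 207, and the lowest of the 20 has a mean of 51.7.

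At 18 pseudogenes a peak lay within 1000 bp of the pseudogene's own 5' end. Their means ran from 2.33 to 128 normalised reads with a median of 15.3, and 9 of the 18 had a central CCAAT box. The highest was Gm17271, a processed copy of the ATP synthase subunit gene Atp5g2, with 92, 154 and 138. This peak of 649 bp overlapped the pseudogene, with its centre 36 bp downstream of the 5' end. It held 5 CCAAT boxes, the nearest 129 bp from its centre. The parent Atp5g2 had 2 peaks, with means of 20.0 and 86.3. At the other end, the peaks of Gm5711, Gm11471, Hnrnpa1l2-ps, Gm12303, Gm5124, 4632415L05Rik and Gm38332 had means under 10, at which a library contributes only a few reads.

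Of these 18, Zfp939 and H2-K2 were chosen after their values were seen because their boxes can be placed exactly. Zfp939, a transcribed unprocessed pseudogene of the zinc finger family, held 80, 108 and 77 normalised reads. The stretch shows a pair of boxes 28 bp apart on the strand of the gene, 80 and 108 bp upstream of its 5' end.
Zfp939 (chr7:39449396-39449452, plus strand): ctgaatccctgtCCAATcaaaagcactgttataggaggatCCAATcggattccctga

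H2-K2 is a transcribed pseudogene of the major histocompatibility complex (MHC) class I family, whose intact members present peptides to T cells and whose promoters are known to carry reverse CCAAT elements. Its peak, 60 bp upstream of the 5' end, held 34, 33 and 29 normalised reads. The promoter peaks of intact relatives were lower, with 8, 16 and 13 at H2-K1, 9, 18 and 16 at H2-D1 and 13, 9 and 12 at H2-Q4, and none of these values reached those of H2-K2. The H2-K2 peak was also longer, at 275 bp against 132, 157 and 156 bp. The centre of the H2-D1 peak lay 259 bp downstream of that gene's 5' end. Only reads that mapped to 1 place were kept, and the effect of this on the values of these related genes was not tested. The aligned stretches run in gene direction, with CCAAT on either strand in capitals, to show how the boxes differ.
H2-K2 (chr17:33978856-33978901, minus strand): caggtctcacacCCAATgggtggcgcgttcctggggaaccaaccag
H2-K1 (chr17:34000332-34000377, minus strand): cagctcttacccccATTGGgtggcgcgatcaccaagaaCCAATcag
H2-Q4 (chr17:35379524-35379569, plus strand): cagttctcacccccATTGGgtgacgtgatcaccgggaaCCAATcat
Counted from 1 at the 5' end of these stretches, with the base of H2-K1 or H2-Q4 first and that of H2-K2 last, T16A exchanged a reverse box for a forward box at overlapping positions. At T43C, H2-K2 lacked the second box that H2-K1 and H2-Q4 have in this stretch. H2-K1 and H2-Q4 each matched H2-K2 at 76.1% of the 46 positions, and H2-D1 is not shown. The H2-K2 peak had its forward box at 0 bp from its centre. It held 2 boxes in all, and the other lay 94 bp from the centre, outside the stretch.

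The CCAAT box had no part in the selection of the peaks. A box on either strand lay in the window of 50 bp to each side of the centre in 96 of the 225 peaks (42.7%, 36.4 to 49.2). Equally wide windows placed 1000 bp away held one in 24 (10.7%) cases to the left and 28 (12.4%) to the right. Only the centre held a box in 87 peaks against the left window and only the left window in 15 (two-sided exact McNemar test, p = 1.65e-13). For the right window the numbers were 82 and 14 (p = 7.24e-13, same exact test). These p-values refer to the peaks of this set and not to biological replicates.

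**Figure D4:**
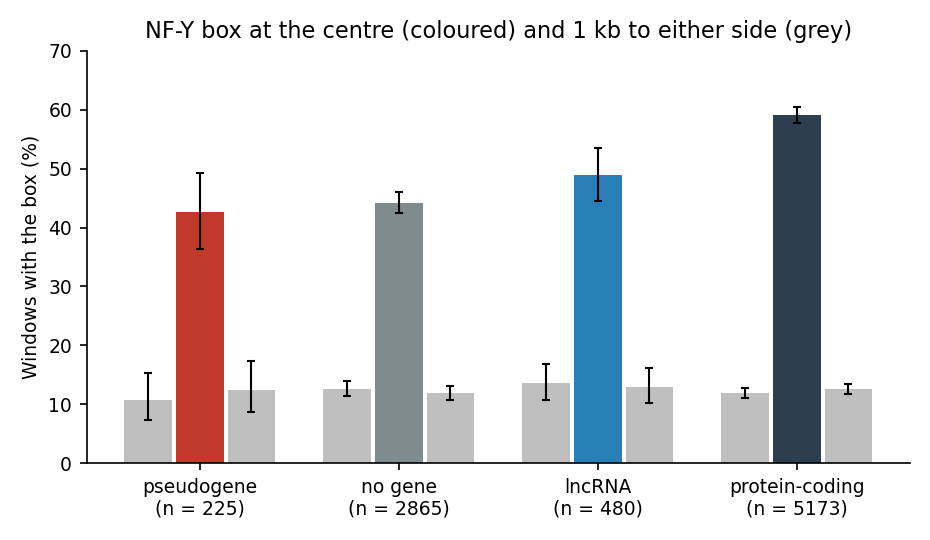
Share of windows, of 50 bp to each side of their centre, with a CCAAT box on either strand (y axis, %) at the peak centre (coloured) and 1000 bp to the left and right (grey), for 4 sets of peaks. Error bars are 95% Wilson intervals, and the centre of pseudogene peaks (42.7%) lies near that of peaks without a gene (44.2%) and below that of protein-coding peaks (59.1%).

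The share was lower than in protein-coding peaks, where 59.1% had a central box, by 16.4 percentage points (42.7% minus 59.1%, 95% Newcombe interval of the difference -22.9 to -9.76). Among peaks beyond 1000 bp of the 5' end, the shares were 42.0% and 45.4%, and the interval of the difference, -10.3 to 3.88, included 0. From peaks without a gene (44.2%) the difference was -1.52 points (-8.07 to 5.26), and from lncRNA peaks (49.0%) it was -6.29 points (-14.0 to 1.61). Over all 9056 peaks, 52.9% had a central box.

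Peaks with a central box had higher medians than those without. Their median levels were 15.5, 21 and 17 normalised reads in replicates 1, 2 and 3, against 9, 9 and 8 for the other 129 peaks. The log2 ratio was 1.03 ± 0.22 (SD, n = 3, exact permutation p = 0.25), higher in 3 of 3 libraries, although the box peaks were also longer, with median lengths of 196 and 143 bp. With the peaks ranked by mean level, a central box was found in 30.7% of the lowest 75 (21.4 to 41.8), 34.7% of the middle 75 (24.9 to 45.9) and 62.7% of the highest 75 (51.4 to 72.7). The boxes lined up with the peak centre. In the middle 40 bp there were 31.1 boxes per 100 pseudogene peaks, compared with 39.2 at protein-coding peaks and 25.6 at peaks without a gene.

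**Figure D5:**
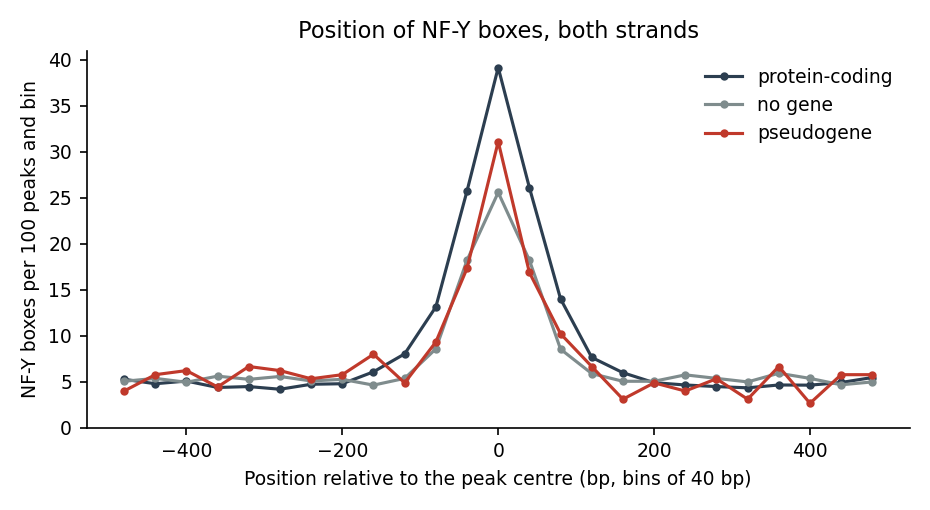
CCAAT boxes on either strand per 100 peaks (y axis) in bins of 40 bp around the peak centre (x axis, bp) for peaks of protein-coding genes (dark), pseudogenes (red) and no gene (grey). All 3 curves have their maximum at 0, with 39.2, 31.1 and 25.6 boxes per 100 peaks.

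Classes of pseudogene differed in this respect. The 14 peaks at unprocessed and transcribed unprocessed pseudogenes had a central box in 10 cases (71.4%), and the 207 at processed and transcribed processed ones in 84 (40.6%), a difference of 30.8 points (3.90 to 48.9). Their median levels were 20.5, 23.5 and 26 against 11, 12 and 10 normalised reads, a log2 ratio of 1.08 ± 0.26 (SD, n = 3, exact permutation p = 0.25). This grouping was made after the values were seen, and the 14 include the Pisd-ps1 and Pisd-ps2 copies, which share their sequence. The 3 highest transcribed processed members were AC123853.2 with a mean of 71.0, Gm6916 with 52.7 and Ccnb2-ps with 52.3.

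Soft-masked sequence was more frequent in these peaks than in those of protein-coding genes, lncRNA genes or no gene. At least 50% of the peak was soft-masked, that is, marked as repeat in the assembly, in 18 of the 225 peaks (8.0%, 5.12 to 12.3), against 1.31% of protein-coding, 3.54% of lncRNA and 3.04% of gene-less peaks. The differences were 6.69 points (95% Newcombe interval 3.78 to 10.98) from protein-coding, 4.46 points (0.919 to 8.95) from lncRNA and 4.96 points (2.0 to 9.29) from gene-less peaks. A near-identical copy (at least 95% identity over at least 90% of the peak) existed elsewhere in the genome for 10 peaks (4.44%, 2.43 to 7.99), against 1.1% of protein-coding peaks, a difference of 3.34 points (1.3 to 6.89). The difference was 2.99 points (0.463 to 6.61) from lncRNA and 3.57 points (1.52 to 7.13) from gene-less peaks, and from the 313 peaks of other RNA genes it was 2.85 points with an interval that included 0 (-0.05 to 6.5). Masked peaks often held the box: 13 of the 18 (72.2%) had it at the centre, against 83 of the other 207 (40.1%), a difference of 32.1 points (8.05 to 48.7). Their levels differed from those of the others by less than the spread between libraries, with a log2 ratio of 0.04 ± 0.09 (SD, n = 3, exact permutation p = 0.75).

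Pdxk-ps, a copy of the pyridoxal kinase gene, was looked up among them after its values were seen. Its main peak, 1631 bp upstream and 89.5% masked, held 38, 47 and 45 normalised reads. Its sequence matched 26 places in the genome, itself included, at 90% identity or more over at least 80% of its length, and 5 of these places were NF-YA peaks as well. A peak without a gene held 39, 30 and 31, one annotated to Setdb1 held 35, 38 and 17, one annotated to Slco1a6 held 20, 13 and 13, and another without a gene held 11, 16 and 12. The fifth, annotated to the pseudogene AC115894.1, held 18, 18 and 11. The boxes of Pdxk-ps and of the Slco1a6 peak are shown because their 25 bases were the same. The Setdb1 peak and the gene-less peak with 39, 30 and 31 had other bases around the box nearest to their centre.
Pdxk-ps (chr17:32108993-32109017, plus strand): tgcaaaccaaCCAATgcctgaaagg
Slco1a6 (chr6:142209663-142209687, minus strand): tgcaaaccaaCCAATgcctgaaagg

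Further repeated peaks were likewise chosen after seeing their values. Across the 10 peaks with a near-identical copy, the median of the means was 16.7 normalised reads, against 11.3 for all 225. Gm10060 and Gm21769, copies of Nsfl1c that encodes a cofactor of the p97 ATPase, had peaks within 1000 bp of their 5' ends with 7, 9 and 18 and with 11, 21 and 21 normalised reads. Nsfl1c itself had 0 peaks. Gm5626, a wholly masked peak of 100 bp with 99 near-identical places in the genome, held 2, 35 and 37, so replicate 1 stood apart. Its reads were shorter than those of the other libraries, per the paper, and whether this mattered was not tested.

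Finally, the parents of the pseudogenes were examined. A protein-coding transcript aligned over at least 50% of the pseudogene for 172 of the 199 pseudogenes, with a median identity of 89.3% to the best match, taken as the parent. The parent had an NF-YA peak of its own for 65 of these 172 (37.8%, 30.9 to 45.2), against 28.2% of 11855 matched pseudogenes in the annotation. Counting each parent once, 52 of 136 parents (38.2%) had a peak, compared with 794 of 3430 parents of other pseudogenes (23.1%), a difference of 15.1 points (7.22 to 23.6). The number of pseudogenes per parent was not adjusted for.

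Copies of cytosolic ribosomal protein genes formed the largest list, with 56 peaks at 53 pseudogenes. That is 26.6% of the 199 pseudogenes, against 17.7% of all 13523. The class of pseudogene was not adjusted for. Processed and transcribed processed ones made up 183 of the 199, against 9940 and 296 of the 13523. None of these peaks overlapped its pseudogene or lay within 1000 bp of its 5' end. Their median level was 10.0 normalised reads against 11.3 for all 225, 17 had a central box, and 17 of the 53 had a parent with a peak. After Gm18001, which lay at Tecr, the highest were Rpl30-ps6 (73, 106 and 100), Gm13039 (77, 68 and 58) and Rpl12-ps1 (69, 40 and 38). The Rpl30-ps6 peak had no CCAAT box at all, and the Gm13039 and Rpl12-ps1 peaks had one at the centre.

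The other lists held fewer peaks. Mitochondrial respiration had 15 peaks at 11 pseudogenes with a median of 11.3, led by Gm17271, Gm9391 (40, 52 and 77), a copy of Atp5l, and Gm12745 (52, 43 and 38), a copy of Cox6c. Glycolysis had 8 peaks at 7 pseudogenes with a median of 6.67 and a highest mean of 25. Of the 7, 6 had Gapdh as their best match. The lists went by the symbol of the parent, so pseudogenes best matched to Gm10358, with Gm26927 among them, were on none. Translation factors had 3 peaks with a highest mean of 13.3 at the Eef1g copy Gm49276. Cell cycle had Ccnb2-ps and Cdk3-ps, the latter with 31, 35 and 22 and 0 boxes in the peak. Among histone genes only the H3f3a copy Gm15905 had a peak, with 9, 9 and 4. Copies of NF-Y subunit genes and of genes of the NSL complex, a histone acetyltransferase complex, had 0 peaks. How many pseudogenes the annotation holds for each of these lists was not counted. Over all annotated pseudogenes only 1.45% had a peak, so few or 0 peaks in a list cannot be read as a property of its genes.

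Most pseudogenes had a single peak. Of the 199, 177 had 1, 18 had 2 and 4 had 3. Where there were 3, the levels were uneven: Gm49478 had means of 79.0, 25 and 5.0 normalised reads, and AC123853.2 had 71.0, 5.67 and 4.33. Gm12983 had 19.7, 16.3 and 7.33, and Gm18402 had 17.7, 12.7 and 8.67. The highest peak of each of these 4 pseudogenes had a central CCAAT box, and their other 8 peaks had no central box. Of those 8, the Gm12983 peak with 16.3 and the Gm18402 peak with 12.7 each held 1 box farther from the centre. Over all 225 peaks, 42.7% had a central box.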

How the data were processed

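NF-YA CUT&RUN was analysed in 3 libraries, described as biological replicates in the study's methods. Per those methods and the submitters' processing notes, reads were trimmed with Trimmomatic 0.39, aligned to mm10 with STAR 2.7.9a and freed of duplicates with Picard 2.25.5 and of spliced and multi-mapping reads. The authors called peaks in each library against IgG, unified them, used featureCounts to count reads, and scaled these counts by DESeq2 1.30.0. The deposited unit is a score: size-factor-normalised reads, rounded to whole numbers by the authors and not corrected for length. Unique mapping lowers values in repeated sequence. Read length, which the paper lists as shorter for replicate 1 than for the other libraries, was not adjusted for. Of the per-sample columns, 0 could not be assigned.

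What 1 read was worth was estimated by maximum likelihood as 0.664, 1.48 and 1.02 normalised reads in replicates 1, 2 and 3, an estimator tested on simulated data. Raw counts per peak were not recovered, and no model for counts was fitted. Expressed in normalised reads, 3 reads correspond to 1.99, 4.43 and 3.06, a limit that reflects counting error alone. The intervals of shares treat peaks or genes as the units counted and leave out variation between libraries.

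Positions are printed counted from 1. Peaks were compared with GENCODE M21 (222 of 225 with identical gene ends) and RefSeq's GRCm38.p6 sequence. Medians were compared per library with an exact sign-flip permutation test, shares with 95% Wilson or Newcombe intervals, and boxes with an exact McNemar test. Copies and parents were found with BLASTN 2.17.0. Python 3.11.15 was used with scipy 1.17.1, statsmodels 0.14.6 and Biopython 1.88. Named peaks were the 10 highest, the 3 highest of each class with at least 10 peaks, the 3 highest without a coding transcript start within 1000 bp, those of pseudogenes with 3 peaks and at most 4 per parent list. Members and lists were chosen with earlier results of these data known. Alternatives covered a minimum mean of 10, values per kb, library size, other sets, distances, windows and motifs, 1 peak per gene and leaving out each replicate.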

Additional observations from a re-analysis of the deposited data

How the results depend on the processing

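No paired analysis was possible because the IgG libraries, which share the replicate numbers 1 to 3, were not analysed here. The log2 ratio of pseudogene to protein-coding medians (-0.94) was -0.72 with a minimum mean of 10, -0.56 per kb, -1.26 with 1 peak per gene and -0.82 against all other gene-annotated peaks, and leaving out 1 replicate gave -0.97 to -0.90. Among the alternatives added after seeing the data, it was -1.03 without repeats and copies and -0.16 for peaks beyond 1000 bp, and it turned to 0.18 against peaks without a gene. The difference in CCAAT share (-16.4 points) was -7.59 with a longer consensus (2 purines before CCAAT, then C or G and a purine), -3.34 beyond 1000 bp and -1.52 against peaks without a gene. The excess of boxes at the centre over the flanks (31.1 points) stayed between 21.3 and 39.8 points in all 6 alternatives, with exact McNemar p of at most 1.13e-09. The share of peaks near their own 5' end (8.0%) was 48.0% at 5000 bp. The median CV (32.7%) was 25.8% with a minimum mean of 10, and 23.6% to 28.3% without 1 replicate, where an SD from fewer libraries has a lower median by construction. Precision is limited by depth: in replicate 2 the median pseudogene peak rested on about 8 reads, and 3 libraries cannot give a sign-flip p below 0.25.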
